A study of Mus musculus with 2 samples.

Results

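Thymocyte-like T cells are described here from single cell RNA-seq of live cells sorted from mouse hearts at postnatal day 1 (P1) and day 7 (P7). They were chosen by their own counts: a cell had to hold a unique molecular identifier (UMI, a tag that counts one captured mRNA molecule) of at least 2 of Cd3d, Cd3e, Cd3g and Lck, at least 1 UMI over Rag1, Rag2, Dntt and Ptcra, and none of Cd79a. Of 8511 P7 cells with 200 to 8000 genes and at most 20% mitochondrial UMIs, 90 met the rule. Of 4991 such P1 cells, 0 did. Each age was 1 library from 3 hearts of one litter, pooled before digestion for 20 min at P1 and 45 min at P7, and the strain, genotype and sex of these hearts are not given in the sources used here. With 1 library per age and all members in one of them, no comparison below has a replicate and no test was made. All 95% intervals cover counting error only and are exact (Clopper-Pearson for shares of cells, Poisson for CPM, and a binomial conditional on the sum for ratios).

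T lymphocytes mature in the thymus, where progenitors pass from a stage without the coreceptors Cd4 and Cd8 through a stage with both to single positive cells that leave for the blood. RAG1 and RAG2 form the recombinase that cuts the T cell receptor (TCR) gene segments, DNTT (terminal deoxynucleotidyl transferase) adds bases at the joints without a template, and PTCRA pairs with a rearranged β chain in the pre-TCR that drives a burst of division before the α chain is rearranged. Mature T cells have shut off all of these genes and carry instead receptors for traffic between blood and lymph nodes, such as S1PR1 and CCR7. The heart is not known as a site of T cell development.

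The members made up 1.06% of the P7 cells (0.851 to 1.30). At P1, the count of 0 allows a share of up to 0.0601% (3 counts of 4991 cells; 0.0739% by the 95% interval). They were set against the 165 P7 cells that met the same T cell criterion but held no UMI of the 4 recombination genes (1.94%, 1.66 to 2.25), termed other T cells below. At P1 there were 14 such cells, of which 12 held more than 5 UMIs of the neutrophil gene S100a9 and 2 a UMI of a TCR α or β constant region gene, so that most of the 14 lacked the receptor transcripts of a T cell. The libraries also differed in transcripts of the sex chromosomes, as the Y-linked genes Ddx3y and Eif2s3y had 7623 and 7463 UMIs at P7 and 0 UMIs at P1, and Xist, transcribed from the inactive X chromosome, had 12 and 57336. The age of the hearts, their sex, the digestion time and the litter cannot be told apart as sources of the difference in members between the libraries. Whether thymic tissue was taken along with the hearts is not given in the sources used here, and where the members came from was not tested. The libraries shared 18 barcode sequences, none of them in a member or an other T cell. A further 2 P7 cells met the member rule but exceeded the mitochondrial limit.

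The values that chose the members are given as a description. Over the 90 cells, Dntt (chromosome 19, 41029275 to 41059525, GRCm38, GENCODE M21) had 340 UMIs in 75 cells, with a median of 3 and a highest value of 28 per cell. Rag1 (chromosome 2, 101638282 to 101649501) had 217 UMIs in 71 cells, and its neighbour Rag2 (101624718 to 101632529) had 38 UMIs in 29. Ptcra (chromosome 17, 46755663 to 46763712) had 122 UMIs in 46 cells. All 4 genes were found together in 14 cells, 3 in 28, 2 in 33 and a single one in 15. The most frequent combinations were Rag1 with Dntt (18 cells), the same with Ptcra (17 cells) and all 4 genes (14 cells). Of the T cell genes, 82 members held all 4, 7 held 3 and 1 held 2.

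At the threshold, 9 members held exactly 1 UMI of the recombination genes. Of these 9 cells, 7 held Arpp21, a phosphoprotein gene used as a marker of the double positive stage, 8 held Cd8b1 and 2 held Ccr7. Of the 81 members with 2 or more such UMIs, 76 held Arpp21, 74 Cd8b1 and 0 Ccr7. Just outside the rule, 2 P7 cells without Cd79a held UMIs of the recombination genes with only 1 T cell gene. The 2 members with Ccr7 were thus at the lower limit of the rule, and neither held Arpp21.

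The members had a lower median depth than the other T cells but a longer upper tail, with a mean of 9041 against 8014 UMIs. Their UMIs per cell had a lowest value of 614, a median of 3985.5 and a highest of 48714 (813727 in all), against 533, 6003 and 46406 in the other T cells (1322313 in all). The median mitochondrial share was 3.26% and 3.47%. To compare shares of cells at equal depth, 2000 UMIs were drawn at random from each cell, so that 83 members and 149 other T cells remained and 7 and 16 shallower ones did not. Endothelial cells and fibroblasts, each gated on 2 of 4 marker genes and without T cell genes, served as background for free RNA. Before thinning these were 1832 endothelial cells with a median of 6834 UMIs and 3450 fibroblasts with a median of 15088. Of them, 1648 and 3273 were thinned. Ratios and list medians given after thinning come from a separate alternative, in which cells were thinned before the rule was applied. It had 71 members, and a cell left without a recombination gene UMI could move to the other T cells.

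Not every other T cell had the makeup of a mature T cell. Of the 165, 157 held a TCR α or β constant region UMI, 6 held more than 5 S100a9 UMIs and 19 held Tyrobp or Fcer1g, genes of natural killer and myeloid cells. Values are therefore also given against the 144 other T cells with a TCR constant region UMI and without Ncr1, Klrb1c, Tyrobp and Fcer1g, termed TCR-positive cells.

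Genes that the rule did not use were counted in the same cells. Members and gene lists were chosen with earlier results of these data known. The values of these genes and lists therefore describe the members and are no independent check of the label thymocyte-like. Cd8b1 (chromosome 6, 71322788 to 71337494), the β chain of the Cd8 coreceptor, had 879 UMIs in 82 of 90 members, with a median of 10 and a highest value of 28, against 342 UMIs in 54 of 165 other T cells. Scaled to 1000000 UMIs of each group (CPM) this was 1080 (1010 to 1154) and 259 (232 to 288), a log2 ratio of 2.06 (1.88 to 2.25). Cd8a, the α chain, had 583 UMIs in 82 members and 162 in 36 other T cells, a log2 ratio of 2.54 (2.29 to 2.81). Both chains were thus far more widespread in the members. Without cycling cells the ratio was 3.17 for Cd8b1 and 3.71 for Cd8a, and after thinning 2.53 and 2.86. Without cells bearing other cell types' UMIs it was 1.65 and 2.05. Cd4, the coreceptor for MHC class II, differed in its summed level by less than counting error, with 107 UMIs in 60 members and 142 in 77 other T cells and a log2 ratio of 0.29 (-0.08 to 0.66). This value depended on the deep cells, as the Cd4 ratio was 1.21 without cycling cells and 1.00 when CPM was averaged over cells. It was 1.29 with every cell thinned to 2000 UMIs before the rule. At equal depth Cd8b1 was detected in 80.7% of members (70.6 to 88.6) and 22.1% of other T cells (15.8 to 29.7), and Cd4 in 37.3% (27.0 to 48.7) and 23.5% (16.9 to 31.1). Neither gene exceeded 0.092% of the endothelial cells or fibroblasts.

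Of the members, 60 held UMIs of both Cd4 and Cd8 (66.7%, 55.9 to 76.3), 26 of Cd8 alone (28.9%), 0 of Cd4 alone and 4 of neither. In the other T cells the same ranges held 20, 38, 57 and 50 cells. Cells with Cd4 alone, the most frequent class among the other T cells, were therefore not found among the members, where a count of 0 allows a share of up to 4.02% by the 95% interval. The 20 other T cells with both coreceptors did not carry the members' profile in most cases, since Arpp21 was detected in 4 of them and Ccr7 in 14.

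Genes of the double positive stage were higher in the members, with the highest median log2 ratio of the lists shown in the plot by list. Of 8841 genes with at least 20 UMIs over both cell groups, 979 (11.1%) were over 2-fold higher in the members and 1010 (11.4%) over 2-fold lower, with a median log2 ratio of 0.06. These counts are descriptions of 2 groups of cells in 1 library. Of the 15 genes of the double positive list that could be compared, 11 were over 2-fold higher and 1 lower, with a median log2 ratio of 2.82. Arpp21 (chromosome 9, 112065091 to 112235938) had 461 UMIs in 83 members, with a median of 4 and a highest value of 23, and 9 UMIs in 5 other T cells, a log2 ratio of 6.30 (5.44 to 7.52). That ratio was 4.34 with every cell thinned before the rule and 5.06 when CPM was averaged over cells. Arpp21 was thus close to absent from the other T cells, and at equal depth it was found in 69.9% of members against 1.34% of other T cells and 0.061% of endothelial cells.

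Further genes of that list followed the same direction. Rmnd5a, part of a ubiquitin ligase complex, had a log2 ratio of 2.82 (2.39 to 3.30) and was found in 73 members. Endou, a ribonuclease gene, reached 4.55 (3.61 to 5.88) in 55 members, although 8 UMIs in 4 other T cells stand behind that ratio. Ccr9, the receptor for the thymic and gut chemokine Ccl25, was higher by 1.60 (1.27 to 1.94), and Ets2, a transcription factor, by 1.61 (1.20 to 2.03). Aqp11, Tctex1d1 and Dgkeos had log2 ratios of 5.77, 5.49 and 5.22 from 1, 1 and 3 UMIs in the other T cells. The gene lower in the members was Zfp281, a zinc finger gene, with -1.65 (-2.85 to -0.72). Slamf1 and Cd1d1, both needed for the selection of innate-like T cells by double positive cells, were at 0.06 and 0.21.

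**Figure D1:**
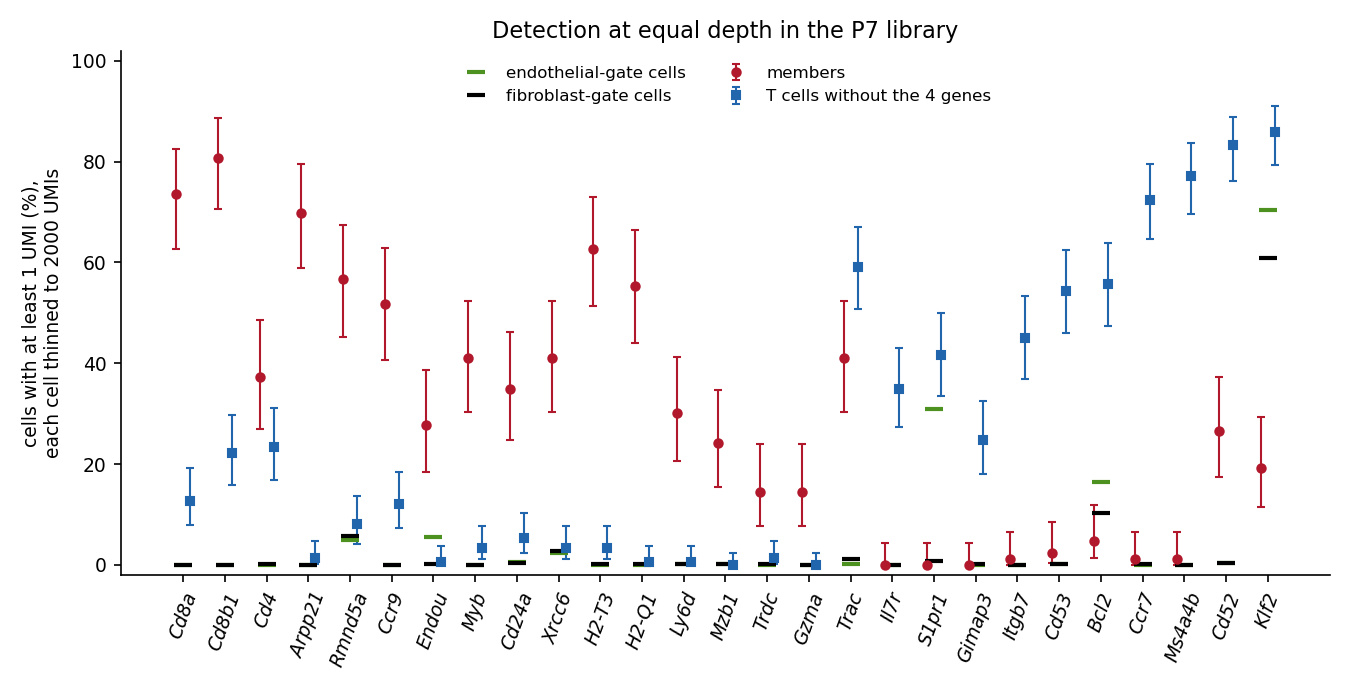
Share of cells with at least 1 UMI of each gene at P7 after thinning every cell to 2000 UMIs, for 83 members (circles) and 149 other T cells (squares), with 95% Clopper-Pearson intervals, and for endothelial-gate and fibroblast-gate cells (dashes). Arpp21 stood at 69.9% and 1.34% in members and other T cells, and Ccr7 at 1.20% and 72.5%. Klf2 was also found in 70.4% of the endothelial cells.

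The genes of maturation and of egress from the thymus were the mirror image. All 20 genes of this list were compared, 0 were over 2-fold higher and 19 were over 2-fold lower in the members, with a median log2 ratio of -3.19, against 11.4% of all genes lower. That median was -2.06 with a single T cell gene sufficient for the rule and -3.84 after thinning. Ccr7, the receptor that guides T cells into lymph nodes, had 23 UMIs in 2 members and 796 UMIs in 129 other T cells, a log2 ratio of -4.38 (-5.08 to -3.82). S1pr1, the receptor for sphingosine 1-phosphate needed to leave the thymus, had 11 UMIs in 6 members and 334 in 112 other T cells (-4.16, -5.24 to -3.37). Il7r, the interleukin-7 receptor that is silent at the double positive stage, had 3 UMIs in 3 members and 299 in 92 other T cells (-5.72, -8.22 to -4.38). None of these 3 receptors was found in more than 1 of the 83 members at equal depth.

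MHC class I followed. B2m, its light chain, had a median of 1 UMI per member, with 221 UMIs in 51 members and 1493 in 152 other T cells (-2.05, -2.27 to -1.85). H2-K1 had a log2 ratio of -2.87 (-3.23 to -2.55) and H2-D1 one of -2.78 (-3.00 to -2.57). Survival and surface genes of mature lymphocytes were lower too, with Bcl2 at -3.11 (-3.59 to -2.69), Cd52 at -3.28 (-3.55 to -3.02), Itgb7 at -4.31 (-5.53 to -3.44) and Gimap3 at -5.24 (-8.62 to -3.68). The gene of the list that did not pass 2-fold was H2-Q7, at -0.99. Klf2, the transcription factor that switches S1pr1 on, had a ratio of -2.67 (-2.86 to -2.49), but 61 of its 264 UMIs in the members lay in 1 cell and the gene is common in endothelial cells. Without cells that held 20 or more UMIs of fibroblast, endothelial or myeloid genes, Klf2 stood at -4.71.

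In contrast to the class I genes of mature cells, 2 nonclassical class I genes were among those with the largest ratios. H2-T3 (chromosome 17, 36185572 to 36190287), which encodes the thymus leukaemia antigen, had 634 UMIs in 70 members with a median of 3 per cell, and 23 UMIs in 19 other T cells, a log2 ratio of 5.46 (4.89 to 6.15). H2-Q1 (35320405 to 35325099) had 257 UMIs in 72 members and 8 in 6 other T cells (5.62, 4.71 to 6.93). Reads of the H2 family may be divided among near-identical genes, and how the authors' counting resolved them is not given in the sources used here.

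Markers of positive selection, the step at which a double positive cell with a useful receptor receives a survival signal, were lower in part. Of 10 genes compared, 0 were over 2-fold higher and 7 over 2-fold lower (11.1% and 11.4% of all genes), with a median of -1.43, which was -0.34 without cycling cells in either group. Cd69, an early activation marker, had 1 UMI in the members and 88 UMIs in 41 other T cells (-5.18, -11.08 to -3.24). Cd53, a tetraspanin gene, was at -3.95 (-4.81 to -3.27) and Itm2a at -1.19 (-1.41 to -0.98), the last at -0.12 without cycling cells. Bcl2l11, which encodes the pro-apoptotic protein Bim, went the other way, with 66 UMIs in 39 members and 59 in 38 other T cells (0.86, 0.33 to 1.39). The immediate early genes Egr1 and Nr4a1, which also respond to tissue digestion, were at -0.01 and -0.83.

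**Figure D2:**
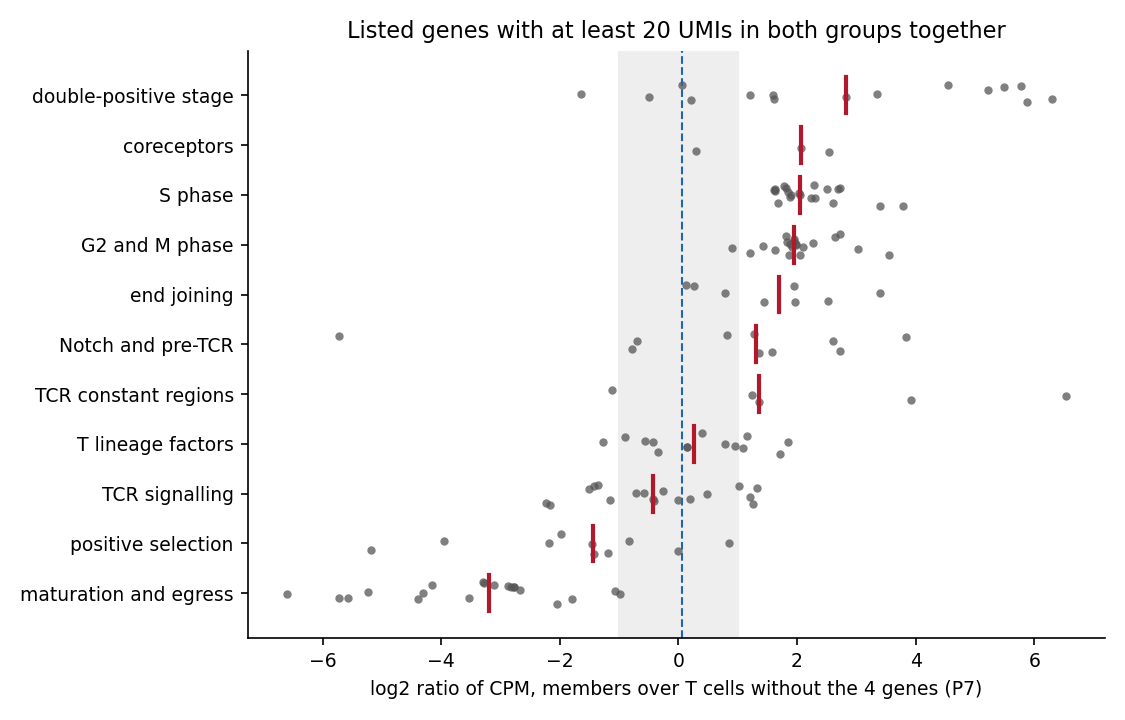
Log2 ratio of CPM, members over other T cells at P7, for each gene (points) of 11 lists with at least 20 UMIs over both groups; red bars are list medians, the dashed line is the median of all 8841 genes (0.06) and the grey band spans 2-fold. The double positive list centres on 2.82 and the maturation and egress list on -3.19, with none of its 20 genes above 0.

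The constant region genes of the TCR divided. Trbc1 and Trbc2, the β constant regions, had log2 ratios of 1.36 (1.26 to 1.47) and 1.25 (1.18 to 1.32), and 89 of 90 members held Trbc2. These 2 genes are similar in sequence and reads may be split between them. Trac, the α constant region, was lower in the members, with 177 UMIs in 53 of them and 624 in 133 other T cells (-1.11, -1.37 to -0.87). Transcripts of the β chain were thus near universal in the members, and those of the α chain were found in fewer of them than of the other T cells. Variable segments, seen sparsely in a library read from the 3′ end, gave 20 Trav UMIs in 15 members and 63 in 33 other T cells (-0.93, -1.76 to -0.21). Trbv segments gave 21 UMIs in 16 members and 19 in 17 other T cells (0.84, -0.12 to 1.82), which did not exceed counting error. The Trac ratio was -0.09 without cycling cells, -0.57 after thinning and -0.28 when CPM was averaged over cells, and it turned to 0.47 with a single T cell gene sufficient for the rule. The ratio of Trbc2 was 0.87 without cells bearing other cell types' UMIs.

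Trdc, the constant region of the δ chain, had 162 UMIs in 23 members, with a highest value of 25, and 17 UMIs in 5 other T cells, a log2 ratio of 3.92 (3.23 to 4.77). Tcrg-C2, a γ constant region, had 28 UMIs in 6 members and 0 in the other T cells. Of the 23 members with Trdc, 19 were among the cycling members described below, 14 held Cd4 and 7 held Trac. Without cycling cells the Trdc ratio was 0.01, so that the excess of δ transcript rested on cycling members. That ratio compared 4 UMIs in 4 members with 16 UMIs in 4 other T cells, of which 12 lay in 1 cell. Against the TCR-positive cells the Trdc ratio of all members was 5.33. Variable segments of the δ locus had 0 UMIs in the members and 5 UMIs in 1 other T cell.

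The joining machinery used after RAG cleavage was in part higher. The end joining list also held Hmgb1 and Hmgb2. Of its 8 genes compared, 5 were over 2-fold higher and 0 lower, against 11.1% and 11.4% of all genes, with a median of 1.69. That median was 0.64 when genes with at least 1 UMI were compared. Xrcc6, the Ku70 subunit that holds DNA ends, had 198 UMIs in 65 members and 30 in 26 other T cells, a log2 ratio of 3.40 (2.86 to 4.03). Lig4, the ligase of this pathway, was at 2.52 (1.35 to 4.04) from 26 and 7 UMIs, and Dclre1c, the Artemis nuclease that opens hairpin ends, at 1.44 (0.26 to 2.76) from 17 and 10 UMIs. Xrcc5, the partner Ku80, was at 0.27 and Xrcc4 at 0.13. Hmgb1 and Hmgb2, which bend DNA for RAG and also accompany proliferation, were at 1.97 and 1.95 and are among the 5. Without cycling cells Hmgb1 stood at 1.86 whereas Hmgb2 turned to -0.50.

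Genes of Notch signalling and of the pre-TCR stage were mostly higher, with 6 of 10 over 2-fold higher (11.1% of all genes), 1 lower (11.4%) and a median of 1.32, which was 0.56 when 6 B lineage genes had to be absent. Myb, a transcription factor of dividing and double positive thymocytes, had 198 UMIs in 62 members and 22 in 14 other T cells (3.84, 3.23 to 4.58). Cd24a, the heat stable antigen lost on maturation, was at 2.61 (2.11 to 3.15), Thy1 at 1.58 (1.31 to 1.87) and Notch1 at 1.36 (0.88 to 1.87), although Notch1 stood at 0.79 without cycling cells and 0.82 after thinning. Hes1, a direct Notch target, was at 2.73 (2.27 to 3.24), but its 189 UMIs lay in 16 members and 60 of them in 1 cell. Below 10 UMIs of 40 cell cycle genes, Hes1 was found in 6 of 57 members and 12 of 138 other T cells. At 10 or more it was found in 10 of 33 and 10 of 27. With the 6 B lineage genes absent Hes1 stood at 0.54. The gene lower was Il7r, which the list shares with the maturation genes. Dtx1 and Nrarp, further Notch targets, were at -0.70 and -0.78.

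Transcription factors of the T lineage differed less. Of 14 compared, 4 were over 2-fold higher, where all genes gave 11.1%, and 1 lower, where they gave 11.4%, with a median of 0.27. Bcl11b, required for T cell commitment, was found in all 90 members and had a log2 ratio of 1.16 (0.97 to 1.36). Sox4 (1.85, 1.63 to 2.08), Tcf12, which encodes the E protein HEB (1.71, 1.39 to 2.04), and Runx1 (1.08, 0.68 to 1.49) were higher, and Lef1 was lower (-1.27, -1.52 to -1.03). Without cells bearing other cell types' UMIs Bcl11b was at 0.90, and with a single T cell gene sufficient for the rule Lef1 turned to 0.35. Tcf7 and Gata3 were at 0.79 and 0.14. Of 18 genes of TCR signalling, 4 were over 2-fold higher and 6 lower (11.1% and 11.4% of all genes), with a median of -0.42, which was 0.12 without cycling cells and 1.18 with a single T cell gene sufficient for the rule. The adaptor Lat (1.26, 1.08 to 1.45) and Themis, which tunes selection (1.21, 0.86 to 1.58), were higher, whereas the costimulatory receptor Cd28 (-1.35), the adhesion receptor Cd2 (-2.16), the kinase Prkcq (-2.24) and the inhibitory receptor Cd5 (-1.42) were lower. Without cycling cells Cd28 stood at -0.75 and Cd5 at -0.41, within 2-fold, and after thinning Cd28 stood at -0.66. With a single T cell gene sufficient for the rule both turned, to 0.22 and 0.17, and Cd2 and Prkcq stood at -0.55 and -0.70. Lat and Themis were at 0.92 and 0.78 without cells bearing other cell types' UMIs.

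The 12 genes with the largest ratios in the members were named by a fixed rule. Some of them, such as Arpp21 and Aqp11, were also in the lists above. Gzma, a serine protease best known from cytotoxic cells, came first, with 154 UMIs in 21 members, a highest value of 37, and 0 UMIs in the other T cells, and was at least 83.4-fold higher against a floor of 3 counts over that group. Its highest values were 37, 34, 32 and 19 UMIs, each in a member with 23275 UMIs or more, so that the sum leaned on a few deep cells. Of the 21 cells, 16 were cycling, 17 held Ptcra and 13 held Trdc. Mzb1, an endoplasmic reticulum chaperone cofactor known from B and plasma cells, had 100 UMIs in 44 members and 1 in the other T cells. Ly6d, a surface protein of lymphoid progenitors, had 339 UMIs in 40 members and 11 in 3 other T cells (5.58, 4.79 to 6.66). Gm15340, an unnamed gene model, had 132 UMIs in 49 members and 6 in 4 other T cells, a log2 ratio of 5.05. Krt19 and C1qa passed the same rule, but all 87 Krt19 UMIs and 74 of 75 C1qa UMIs lay in 1 member each. Dgkeos, named for lying opposite Dgke, could share reads with it unless strand was used in counting, which is not given in the sources used here.

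The 12 genes with the largest ratios towards the other T cells were neutrophil genes, among them S100a8, S100a9, Ngp, Camp and Lcn2, and nearly all of their UMIs lay in the 6 cells with more than 5 S100a9 UMIs (3528 of 3539 for S100a9). Against the TCR-positive cells, where 981 of 8430 genes were over 2-fold higher (11.6%) and 828 over 2-fold lower (9.82%), the same rule named Gm2682, Gm8369, Dapl1, Il7r, Ms4a4b, Cd69, Gimap3, Izumo1r, Slfn1, Chd7, Fam46c and Ccr7 as lowest in the members. Gm2682, an unnamed gene model, had 0 UMIs in the members and 165 in 77 other T cells, and Gm8369 had 1 and 259. Ms4a4b, a membrane protein of mature T cells, had 23 UMIs in 6 members and 1813 in 139 other T cells. The double positive list against the TCR-positive cells had a median of 2.88 and the maturation list one of -3.28.

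**Figure D3:**
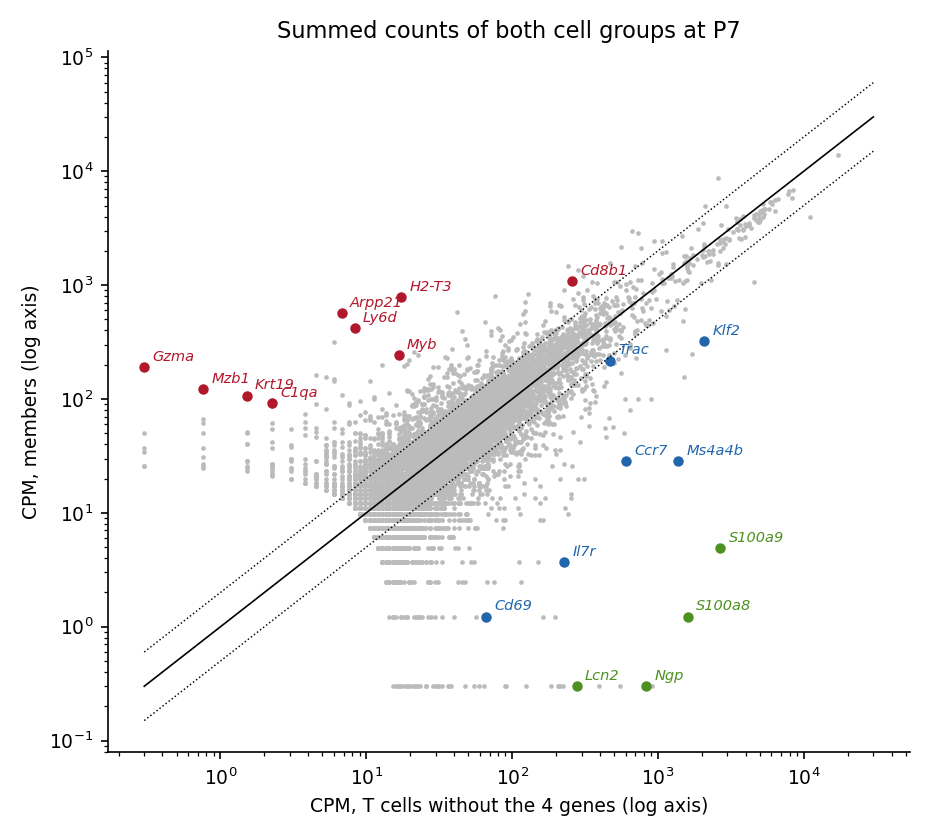
CPM of each gene in the summed members and the summed other T cells of P7, on log axes; the solid line marks equal values, dotted lines 2-fold, and genes with 0 UMIs in a group are drawn at 0.3 CPM. Genes labelled in red were higher in members, in blue lower, and in green the neutrophil genes carried by 6 other T cells; Krt19 and C1qa lay almost wholly in 1 member each.

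The members held more transcripts of the cell cycle than the other T cells. All 20 S phase genes compared were over 2-fold higher, against 11.1% of all genes, with a median log2 ratio of 2.05, and 19 of 20 genes of G2 and M phase, with a median of 1.95, the remaining gene being Cenpa at 0.91 (0.60 to 1.22). Rrm2, a subunit of the reductase that makes deoxynucleotides, had 471 UMIs in 27 members and 55 in 17 other T cells, a log2 ratio of 3.79 (3.39 to 4.23). Top2a, the topoisomerase of dividing cells, was at 2.28 (1.96 to 2.61) and Mki67 at 1.83 (1.46 to 2.21). These transcripts lay in a minority of the members, as the median member held 0 UMIs of each of the 3 genes.

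A limit of 10 UMIs over the 40 cell cycle genes, set after the values had been seen, put 33 members (36.7%) above it and 57 below. It is a range of a count and not a cell type, with 8 members between 5 and 9 UMIs and 3 between 10 and 19. Of the other T cells, 27 (16.4%) lay above it. Cells above the limit were deep, with a median of 14999 UMIs against 3075 below it, and they gave 71.6% of all UMIs of the members. At equal depth, 36.1% of members (25.9 to 47.4) held 5 or more such UMIs, against 8.05% of other T cells (4.23 to 13.6), 17.4% of endothelial cells (15.6 to 19.3) and 10.1% of fibroblasts (9.10 to 11.2). The higher share in the members was thus also seen at equal depth.

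The cycling members differed from the others in genes that mark stages and that the rule did not use. The recombination genes were left out of this comparison, since a shallow cell could meet the rule only with many of their UMIs for its depth. Per 10000 UMIs, the median cycling member held 7.57 UMIs of Cd8b1, 4.62 of Arpp21 and 0 of Trac, and the median member below the limit 29.5, 10.7 and 4.37. As summed counts, the log2 ratio of cycling to other members was -2.19 for Cd4 (-2.81 to -1.60), -2.55 for Trac and -2.36 for Ccr9 (-2.80 to -1.94). Higher in cycling members were Trdc (3.80) and Gzma (2.96, 1.98 to 4.40), with Gzma in 16 of 33 cycling members and 5 of 57 others. Cd24a did not differ beyond counting error (-0.14, -0.64 to 0.39). Since the deep cells were also the cycling ones, RNA content per cell and the level of recombination UMIs needed to meet the rule moved together with these ratios, and their part in them was not tested.

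**Figure D4:**
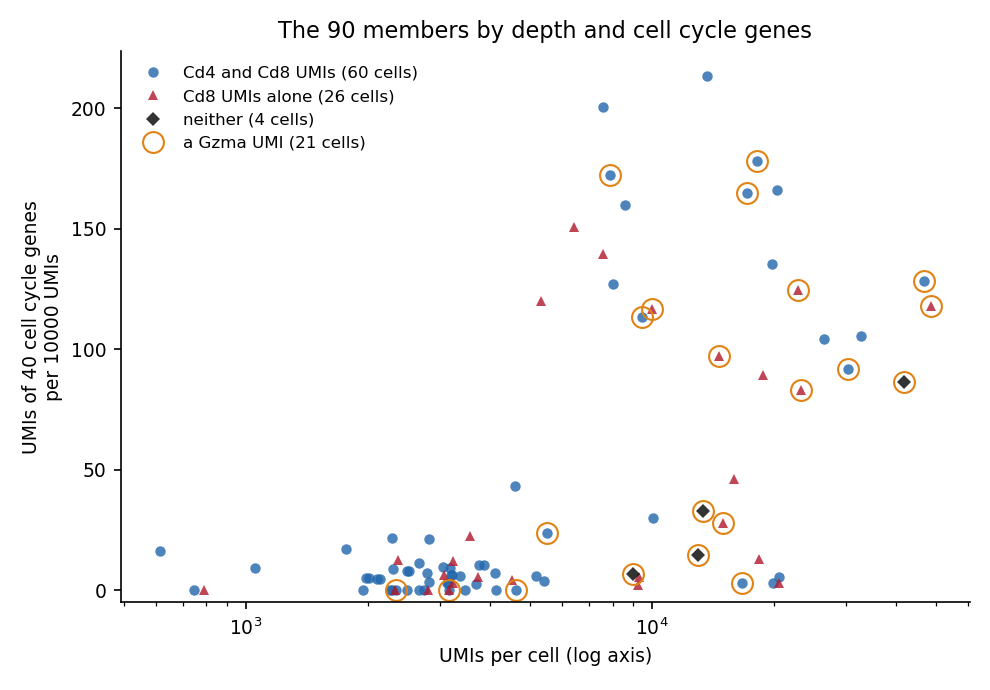
Each of the 90 members by its UMIs (log axis) and its UMIs of 40 cell cycle genes per 10000 UMIs, with symbols for the Cd4 and Cd8 UMIs it held and rings around the 21 cells with Gzma. Most cells near the median of 3985.5 UMIs held few cell cycle UMIs, whereas cells with many held 4602 UMIs or more, and 16 of the 21 ringed cells were among the 33 with 10 or more cell cycle UMIs.

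The 4 members without Cd4 and Cd8 stood apart. They were deep, from 8995 to 41672 UMIs, all held Arpp21, Tcrg-C2 and Gzma, and none held Trac. Of the 189 Hes1 UMIs of all members, 137 lay in these 4 cells (1779 CPM). Il2ra, the interleukin-2 receptor α chain that marks cells just before the pre-TCR checkpoint, was found in 3 of them and in 5 members in all. With 4 cells in 1 library, these values describe those cells only. Of the earlier progenitor list, Kit, Flt3 and 5 further genes did not reach 20 UMIs over both groups, and of the 5 compared 0 were over 2-fold higher and 2 over 2-fold lower, against 11.1% and 11.4% of all genes, with a median of -0.98. That median was -0.41 without cycling cells. Of the genes compared, Cd34 (-0.86) was also found in 87.9% of endothelial cells and 66.7% of fibroblasts at equal depth. Cd44 (-1.90) had 39 UMIs in the other T cells but 8 in the TCR-positive cells. Against the TCR-positive cells 2 genes of the list could be compared, with a median of -0.47. Neither was over 2-fold higher or lower, against 11.6% and 9.82% of all genes.

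Markers of other cell types were counted in the same cells. Of 12 B lineage genes beyond Cd79a, 6 were detected in the members with 331 UMIs in all, of which Ighm gave 236, and Ms4a1, Vpreb3, Igll1, Blnk and Cd22 were at 0. Cd79b, the signalling partner of Cd79a, had 34 UMIs in 25 members and 8 in 6 other T cells (2.72, 1.65 to 4.11). Of 10 natural killer genes, 4 were detected and Ncr1, Klrb1c, Klrk1, Klrd1, Klre1 and Eomes were at 0, so that Gzma in the members came without these genes. Of 8 plasmacytoid dendritic cell genes, 6 were detected with 535 UMIs, 339 of them Ly6d, and Siglech and Klk1 were at 0. Myeloid genes had 318 UMIs, of which 292 lay in 1 cell.

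Fibroblast genes had 3766 UMIs in the members, or 4628 CPM, with Dcn at 1282, against 8704 CPM in the other T cells. Of these UMIs, 3526 lay in 8 members with 44 to 818 each, and the median member held 3. Without cycling cells the median log2 ratio of the fibroblast list turned from -0.91 to 0.49, and that of the endothelial list from -0.87 to 0.38. Endothelial genes had 763 UMIs, or 938 CPM, with Fabp4 at 504, against 2085 CPM. A limit of 20 UMIs of any of these lists, set after the values had been seen, marked 12 members and 35 other T cells, with median depths of 17525 and 14425 UMIs. Without these cells the double positive list had a median of 2.67, the maturation list -3.73, Arpp21 5.90 and Cd8b1 1.65. Thymic epithelial genes gave 43 UMIs over 6 of 14 genes, with Epcam first at 18, and the defining genes Foxn1, Psmb11, Prss16 and Aire were at 0 in the members and in the other T cells. In the remaining 8256 P7 cells Foxn1 was at 0 too, whereas Psmb11 had 4 UMIs, Prss16 had 6 and Aire 2, each UMI in a cell of its own. Of 14 genes of the digestion response, 2 were over 2-fold higher and 2 lower, shares near the 11.1% and 11.4% of all genes, with a median of -0.36.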

How the data were processed

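Live cells from P1 and P7 hearts were profiled by droplet single cell RNA-seq, 1 library per age. Per the submitters' processing notes, the authors ran Cell Ranger 3.1.0 with mm10 (GRCm38). They deposited raw UMI counts per gene and barcode, without normalisation or cell filters, for 7836 P1 barcodes (63585504 UMIs) and 9077 P7 barcodes (98346195 UMIs). Median depth of cells kept was 10875 and 10104 UMIs.

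Cells were chosen by a rule on their counts, not by clustering, which does not follow the study's own cell names. Members and gene lists were chosen with earlier results of these data known. UMIs were summed per cell group and scaled to CPM. Log2 ratios had 0.5 counts added, for genes with at least 20 UMIs over both groups, without the 9 genes of the rule. The 12 largest ratios in each direction were also named, whether the gene was listed or not, provided the higher group held 50 or more UMIs of it. V, D and J segments and mitochondrial genes were left out. Some listed or named genes are not reported here. No doublet caller was applied in the values given, and a simulated-doublet score was an alternative, besides alternatives of the limits, the rule, depth, scaling, counts added and the comparison cells. On simulated counts for members against other T cells (8557 genes, 200 changed 4-fold), 98.5% of changed genes passed 2-fold, as did 2.25% of unchanged ones, and 96.3% of intervals held the true ratio. These counts were Poisson draws without spread between cells, which is what the intervals assume. They therefore cannot show how the intervals or the 2-fold limit perform where UMIs lie in a few cells. Python 3.11.15, numpy 2.4.6, scipy 1.17.1 and pandas 2.3.3 were used.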

Additional observations from a re-analysis of the deposited data

Results flagged for a closer look

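Recombination gene UMIs were also found in cells without T cell genes, which are neither members nor other T cells, although part of them belong to the endothelial and fibroblast gates that served as background. Of 7861 P7 cells with none of the 4 T cell genes and no Cd79a UMI, 47 held a UMI of Rag1, Rag2, Dntt or Ptcra (0.598%, 0.440 to 0.794). Rag1 was found in 9 of them, Dntt in 19, Ptcra in 19 and Rag2 in 0, and no cell held more than 2 such UMIs. Of the 47 cells, 29 were gated as fibroblasts and 11 as endothelial cells, and their median depth was 16281 UMIs. At P1, where no member was found, 8 of 4782 such cells held a UMI (0.167%, 0.0723 to 0.329). Among cells with a Cd79a UMI, 12 of 48 at P1 and 5 of 140 at P7 did. What these UMIs came from was not tested.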

How the results depend on the processing

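All values rest on 1 library per age, so neither the spread between hearts nor that between litters is known, and thinly counted genes have wide intervals. The number of members ranged from 63 to 92 over 10 alternatives and was 0 at P1 in each. The low value, 0.740% of P7 cells, was obtained when 6 B lineage genes had to be absent. The share of members with both coreceptors ranged from 65.9% to 73.7% over 13 alternatives. No paired analysis was possible because each age had 1 library.

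Genes over 2-fold higher numbered 524 (and 318 lower) after thinning before the rule, 564 (542) with at least 50 UMIs and 2538 (2352) with at least 1 UMI. The number lower was 2710 with 1 T cell gene sufficient and 559 without cycling cells. The median of all genes moved from 0.06 to 0.30 without cycling cells, 0.23 after thinning, 0.21 as mean of per-cell CPM and -0.06 with 1 T cell gene sufficient.

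The maturation list had medians of -3.68 with 2 recombination genes required, -2.06 with 1 T cell gene sufficient, -3.84 after thinning and -3.73 without cells bearing other cell types' UMIs. The double positive list had 3.48 after thinning and 2.22 with at least 1 UMI, and the end joining list 0.64 in the latter. The Notch and pre-TCR list had 0.56 with 6 B lineage genes absent and 1.98 without cells bearing other types' UMIs, where the G2 and M list had 3.24. The S phase list had 1.53 as mean of per-cell CPM and 0.0493 without cycling cells, by construction.

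Directions changed with 1 T cell gene sufficient, which by construction adds cells with a single T cell gene: the regulatory T cell list to 0.0628, Trac to 0.47, Cd28 to 0.22, Cd5 to 0.17, Lef1 to 0.35 and Notch3 to -0.74. Against TCR-positive cells, chosen to lack Tyrobp and Fcer1g, the natural killer list was at 6.56, the myeloid list at 4.71 and Lyz2 at 1.86. Without cycling cells Hmgb2 was at -0.50 and Fabp4 at 0.24. Ratios within 2-fold also turned without cycling cells, among them Myc from 0.82 to -1.52, Dcn from -0.71 to 1.08 and Cenpa from 0.91 to -0.61. The plasmacytoid dendritic cell list went from -0.56 to 1.31. Of 1565 values of 85 genes over 19 alternatives, 1276 stayed within the counting interval, 281 left it without counting as reversed and 8 reversed. Reversed values changed sign from a main ratio past 2-fold. Changes of sign from a main ratio within 2-fold, such as those of Myc and Dcn, are among the 281.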
